A study of Mus musculus with 4 samples.

Results

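Skeletal muscle is 1 of the fates that mesenchymal cells can take in place of bone, and the regions described here lie at 9 genes of that fate: Pax3, Pax7, Myf5, Myf6, Myod1, Myog, Mef2c, Des and Ckm. A region of open chromatin was a member when it overlapped one of these genes or the 25 kb on either side of it in the GENCODE M21 annotation of GRCm38. Myf5 and Myf6 are neighbours whose windows overlap, and their regions were counted once, as 1 locus. This gave 111 of the 255864 regions of the count table, in 8 loci. The members were chosen by gene and position, and accessibility played no part in the rule, but the genes were chosen with earlier results of these data known.

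Open chromatin had been measured by ATAC-seq, in which the Tn5 transposase cuts accessible DNA and inserts sequencing adapters. The cells were primary osteoblasts of C57BL/6 mice aged 3 days, which the study's methods describe as cells digested from parietal bone and grown in culture. TCKO mice carried Prx1-Cre together with Tet1fl/fl, Tet2fl/fl and Tet3fl/fl, so that all 3 TET enzymes, which oxidise methylated cytosine and start its removal, were deleted where the Cre had been active. Mice labelled wild type (WT) were the controls, and whether they carried floxed alleles or the Cre is not given in the sources used here. Prx1-Cre acts in mesenchyme of the limb and of part of the skull and in its descendants, and a cultured cell from another lineage would keep its Tet genes.

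The labels list 2 samples per genotype, 4 in all, while a protocol text among them speaks of 3 repeats, and the count table holds 1 merged column per genotype. No spread between replicates could therefore be computed, no test was made, and every interval below is a 95% Wilson interval that covers counting error only. The merged counts summed to 56898657 in WT and 34608167 in TCKO. Counts in TCKO were multiplied by 1.64 to reach the WT total, and the log2 ratio of a region was taken between the scaled TCKO count and the WT count after 1 was added to each, so that a value above 0 means more reads in TCKO. On this scale the median region of the whole table stood at 0.064. The regions around the deleted genes themselves gave log2 ratios of −0.17 at Tet1, −0.19 at Tet2 and −0.058 at Tet3, but the deleted exons are not given in the sources used here and such sums do not check the deletion.

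Muscle identity is built by a short cascade of transcription factors. Pax3 and Pax7 are paired-box factors that mark the muscle progenitors of the embryo and the satellite cells of grown muscle. Myf5 and Myod1 are the basic helix-loop-helix factors that commit a cell to the lineage, Myog drives its differentiation, and Myf6 acts both early and in mature fibres. These 4 factors bind E-boxes (CANNTG) as dimers with E proteins, and they work with the MEF2 factors, of which Mef2c is a member that is also used in heart, endothelium, cartilage, neurons and bone. Des (desmin, the intermediate filament of muscle) and Ckm (the creatine kinase of muscle) are muscle genes downstream of the cascade.

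The sequences of the member regions on which the results turn are printed first, each as the plus strand of GRCm38, 5′ to 3′. A region of up to 200 bases is shown whole and a longer one by its central 200 bases. Capitals mark matches, on either strand, to the E-box CANNTG, to the MEF2 element (CTA and TAG with any 4 bases between them), to the Runt motif TGTGGT bound by RUNX factors, and to the AP-1 motif TGANTCA. The first 3 are the largest falls in counts of the Mef2c and Myf5-Myf6 loci, by a rule given in the methods, and the first of them kept 6 reads in TCKO against 50 in WT.
Mef2c chr13:83544875-83545024: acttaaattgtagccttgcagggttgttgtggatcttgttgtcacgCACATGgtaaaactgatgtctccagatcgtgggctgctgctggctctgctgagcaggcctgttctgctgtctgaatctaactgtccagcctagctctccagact
Mef2c chr13:83585463-83585662: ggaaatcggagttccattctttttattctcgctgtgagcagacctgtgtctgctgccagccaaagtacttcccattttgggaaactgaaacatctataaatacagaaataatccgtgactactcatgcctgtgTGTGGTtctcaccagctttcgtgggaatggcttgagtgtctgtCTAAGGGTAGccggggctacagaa
Myf5-Myf6 chr10:107473626-107473819: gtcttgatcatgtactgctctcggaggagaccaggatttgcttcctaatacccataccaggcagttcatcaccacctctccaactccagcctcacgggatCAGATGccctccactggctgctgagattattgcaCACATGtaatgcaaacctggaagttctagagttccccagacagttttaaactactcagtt
The next 4 are regions with the largest rises in counts, and all of them had fewer than 100 reads in WT.
Myog chr1:134310448-134310558: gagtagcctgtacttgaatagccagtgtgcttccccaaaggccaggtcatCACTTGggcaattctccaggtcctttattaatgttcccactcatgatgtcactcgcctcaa
Myf5-Myf6 chr10:107502271-107502456: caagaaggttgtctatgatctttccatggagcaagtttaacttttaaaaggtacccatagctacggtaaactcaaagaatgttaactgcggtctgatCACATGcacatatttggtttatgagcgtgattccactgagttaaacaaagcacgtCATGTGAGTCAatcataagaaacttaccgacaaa
Pax7 chr4:139853522-139853623: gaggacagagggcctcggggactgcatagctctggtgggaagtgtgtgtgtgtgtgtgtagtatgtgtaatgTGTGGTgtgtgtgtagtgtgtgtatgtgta
Myod1 chr7:46380539-46380738: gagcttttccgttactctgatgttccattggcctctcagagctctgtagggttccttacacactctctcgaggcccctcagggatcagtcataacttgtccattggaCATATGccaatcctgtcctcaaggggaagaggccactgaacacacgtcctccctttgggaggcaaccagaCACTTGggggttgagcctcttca
The next 2 are the members whose central 200 bases hold a MEF2 element with only A or T at its 4 middle positions, the form that MEF2 proteins are known to prefer.
Mef2c chr13:83565808-83566007: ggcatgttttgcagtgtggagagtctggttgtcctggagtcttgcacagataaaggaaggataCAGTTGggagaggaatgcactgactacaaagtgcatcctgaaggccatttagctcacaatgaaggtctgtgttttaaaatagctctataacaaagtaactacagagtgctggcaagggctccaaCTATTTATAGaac
Des chr1:75347414-75347613: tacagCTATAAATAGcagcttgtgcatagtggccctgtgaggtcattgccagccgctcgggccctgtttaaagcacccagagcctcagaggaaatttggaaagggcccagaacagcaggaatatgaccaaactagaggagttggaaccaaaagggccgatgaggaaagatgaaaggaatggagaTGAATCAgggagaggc
The last is the member with most CpG dinucleotides, the sites where TET enzymes act, among regions nearest a member start, and here the capitals mark its 31 CpG.
Pax7 chr4:139821564-139821763: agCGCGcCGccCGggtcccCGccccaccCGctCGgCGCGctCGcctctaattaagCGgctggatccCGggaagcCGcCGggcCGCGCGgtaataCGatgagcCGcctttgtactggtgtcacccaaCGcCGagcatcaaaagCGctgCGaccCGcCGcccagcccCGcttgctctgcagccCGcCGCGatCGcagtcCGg
The capitals are letter matches and do not show that a factor was bound. In the second of these sequences the MEF2 match reads CTAAGGGTAG, whose middle is not made of A and T only, and the Pax7 rise lies in a run of alternating T and G.

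As a group the muscle fate regions were split evenly between the genotypes. Of the 111 regions, 57 had a log2 ratio below 0 and 54 above 0, the share below 0 being 51.4% against 45.4% of all regions. The median was −0.0083, with single regions between −2.23 and 1.99. At least 2-fold lower counts in TCKO were found in 3 members (2.70%), against 4.51% of all regions, and at least 2-fold higher counts in 8 members (7.21%), against 12.3% of all regions. Both shares lay below those of the table when scaled by total count, but with no scaling 33.3% of members and 25.6% of all regions were at least 2-fold lower, and with the peak caller's background 21.6% and 19.9%. The counting interval excluded 0 on the lower side in 25 members and on the higher side in 26, where 18.9% and 29.5% of all regions did so. The counts behind a member were low, with a median of 100 reads in WT and 68 in TCKO, and the intervals of the remaining members spanned 0.

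The even split hid a difference between Mef2c and the other genes. All 3 members at least 2-fold lower were at Mef2c, 10.3% of its 29 regions against 4.51% of all regions. Without that locus the other 82 regions had a median of 0.15, against 0.064 for all regions. Of the 82, 0 were at least 2-fold lower, against 4.51% of all regions. At least 2-fold higher were 8 of them (9.76%), fewer than the 12.3% of all regions. When counts were summed over each locus, Mef2c was the 1 locus of 8 with an interval wholly below 0, and the Pax7, Myf5-Myf6, Myod1 and Des loci had intervals wholly above 0 by total count, and their ratios turned negative with no scaling or with the peak caller's background. Under the TMM and DESeq2 factors the intervals of Pax7 (lower limits −0.016 and −0.0057) and Des (−0.062 and −0.052) spanned 0 as well. Such sums were computed in the same way for all 19921 protein-coding genes with a region, of which 35.7% had an interval wholly below 0 and 28.0% wholly above it. By total count none of the 8 loci reached a 2-fold difference, which 0.131% of all loci did on the lower side and 1.92% on the higher side. With no scaling Mef2c passed it, at −1.06.

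**Figure D1:**
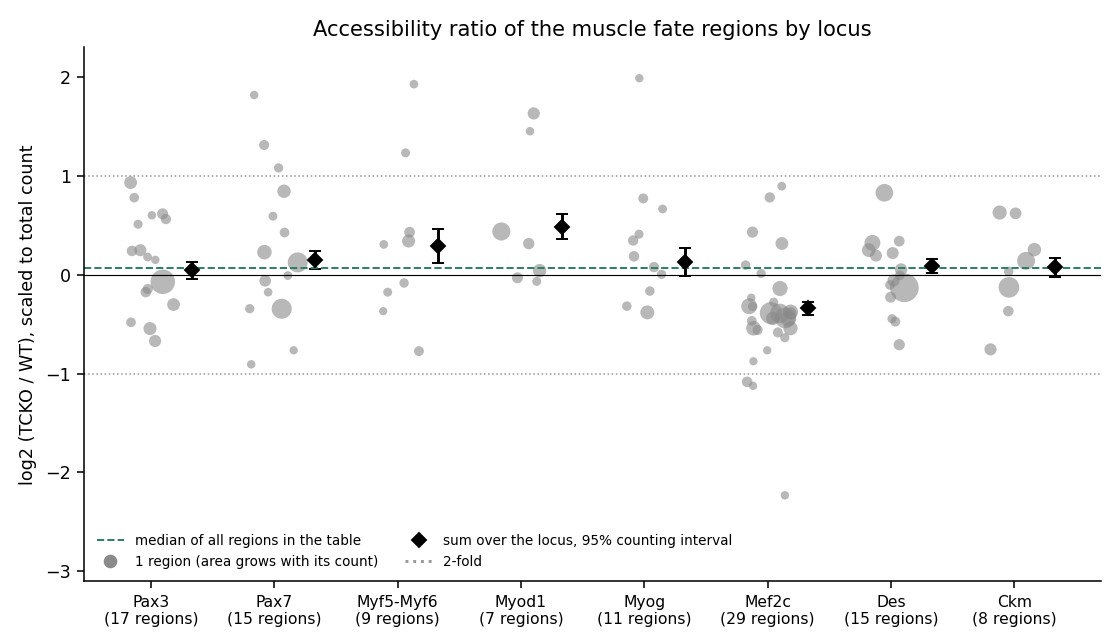
Each grey point is 1 region, placed by its log2 ratio of scaled TCKO over WT counts and drawn larger where it had more reads, and the diamonds give the ratio of the counts summed over a locus with the 95% counting interval. The Mef2c diamond at −0.34 is the only one below 0, the Myod1 diamond at 0.48 is the highest (both by total count, Myod1 turning negative with no scaling), and the dashed line is the median of all regions at 0.064.

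Pax3 and Pax7, the upstream factors, differed little between the genotypes when scaled by total count. With the peak caller's background and with no scaling both loci were lower in TCKO, Pax3 at −0.57 and −0.67. The 17 regions of the Pax3 locus (chr1:78101267-78197134, minus strand, with the flanks) held 2779 reads in WT and 1742 in TCKO (log2 ratio 0.043, interval −0.043 to 0.13). Its region with most reads, chr1:78215748-78216383, lay 18.9 kb upstream of the start and had 1019 reads in WT and 590 in TCKO (log2 ratio −0.071, interval −0.22 to 0.075). The region over the Pax3 start itself was small, with 106 reads in WT and 57 in TCKO, and a peak summit was called there only in WT. Past the 3′ end of the gene, 3 regions had log2 ratios of 0.93, 0.51 and 0.56. The intronic region chr1:78129048-78129658 had 202 reads in WT and 77 in TCKO (log2 ratio −0.67).

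The Pax7 locus (chr4:139737062-139833528, minus strand) had 2363 reads in WT and 1596 in TCKO over 15 regions, a log2 ratio of 0.15 (0.060 to 0.24). No region lay within 1 kb of a protein-coding transcript start of Pax7. Its region with most reads, chr4:139716423-139716858, past the 3′ end of the gene, had 693 reads in WT and 332 in TCKO and went the other way, with a log2 ratio of −0.34 (−0.53 to −0.16). Leaving it out raised the locus to 0.32 (0.21 to 0.42). Another strong region, in an intron at chr4:139797254-139797675, had 612 reads in WT and 406 in TCKO (log2 ratio 0.13). The 3 Pax7 regions at least 2-fold higher in TCKO were weak, with 57, 43 and 17 reads in WT and 87, 56 and 38 in TCKO. The CpG-rich intronic region printed above, with 31 CpG in its central 200 bases, had 151 reads in WT and 88 in TCKO (log2 ratio −0.061).

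The determination factors stood somewhat higher in TCKO when scaled by total count, and lower with no scaling or with the peak caller's background. Around Myf5 and Myf6 (chr10:107482908-107494737 for both genes, minus strand), 9 regions held 643 reads in WT and 479 in TCKO, the fewest of the 8 loci, with a log2 ratio of 0.29 (0.12 to 0.46). The region near the Myf6 start, chr10:107493164-107493884, had the most reads of this locus, 197 in WT and 152 in TCKO (log2 ratio 0.34, interval 0.038 to 0.65). Near the Myf5 start, chr10:107484857-107485249 had 101 reads in WT and 83 in TCKO (log2 ratio 0.43, interval 0.017 to 0.85). The flanks went both ways. Downstream of Myf5, at chr10:107473626-107473819, 99 reads in WT stood against 35 in TCKO (log2 ratio −0.77, interval −1.34 to −0.23). Upstream of Myf6, at chr10:107502271-107502456, 20 reads in WT stood against 48 in TCKO (log2 ratio 1.93, interval 1.24 to 2.72).

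Myod1 had the highest ratio of the 8 loci. Its 7 regions held 1097 reads in WT and 933 in TCKO (log2 ratio 0.48, interval 0.36 to 0.61), or 1.40-fold higher by total count, and 93.8% of all protein-coding loci had a lower value. With the peak caller's background the locus stood at −0.13, and with no scaling at −0.23. The increase by total count was uneven along the locus (chr7:46376474-46379099, plus strand). The largest part came from chr7:46380400-46380878, 4.17 kb downstream of the start, with 98 reads in WT and 186 in TCKO and a log2 ratio of 1.63 (1.29 to 1.99). This region was also called as a peak in both genotypes, with a summit enrichment of 5.58-fold over the local background in WT and 8.42-fold in TCKO. Without it the locus stood at 0.30 (0.16 to 0.43). A weak region 9.50 kb upstream, chr7:46366888-46367054, had 21 reads in WT and 36 in TCKO (log2 ratio 1.45, interval 0.73 to 2.26), with a summit in TCKO only.

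The region with most reads in the Myod1 window was not near Myod1. At chr7:46396124-46397089, over the start of the potassium channel gene Kcnc1, 444 reads in WT stood against 366 in TCKO (log2 ratio 0.44). With the regions nearest to Kcnc1 set aside, the 5 regions left for Myod1 had a log2 ratio of 0.72. Inside the gene, the exonic region chr7:46378253-46378441 had 50 reads in WT and 29 in TCKO (log2 ratio −0.067), and the next region, 2.73 kb past the start, had 126 and 75, a log2 ratio of −0.031. No region lay within 1 kb of the Myod1 start. The far upstream region chr7:46353207-46353524, 23.1 kb before the start, held an E-box of the form CAGCTG, which MYOD1 is known to prefer. It had 128 reads in WT and 97 in TCKO (log2 ratio 0.31, interval −0.062 to 0.70). The central 200 bases of the region 2.73 kb past the start, at −0.031, held the same form. So did those of chr7:46393134-46393405, nearest to Kcnc1, at 0.042.

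**Figure D2:**
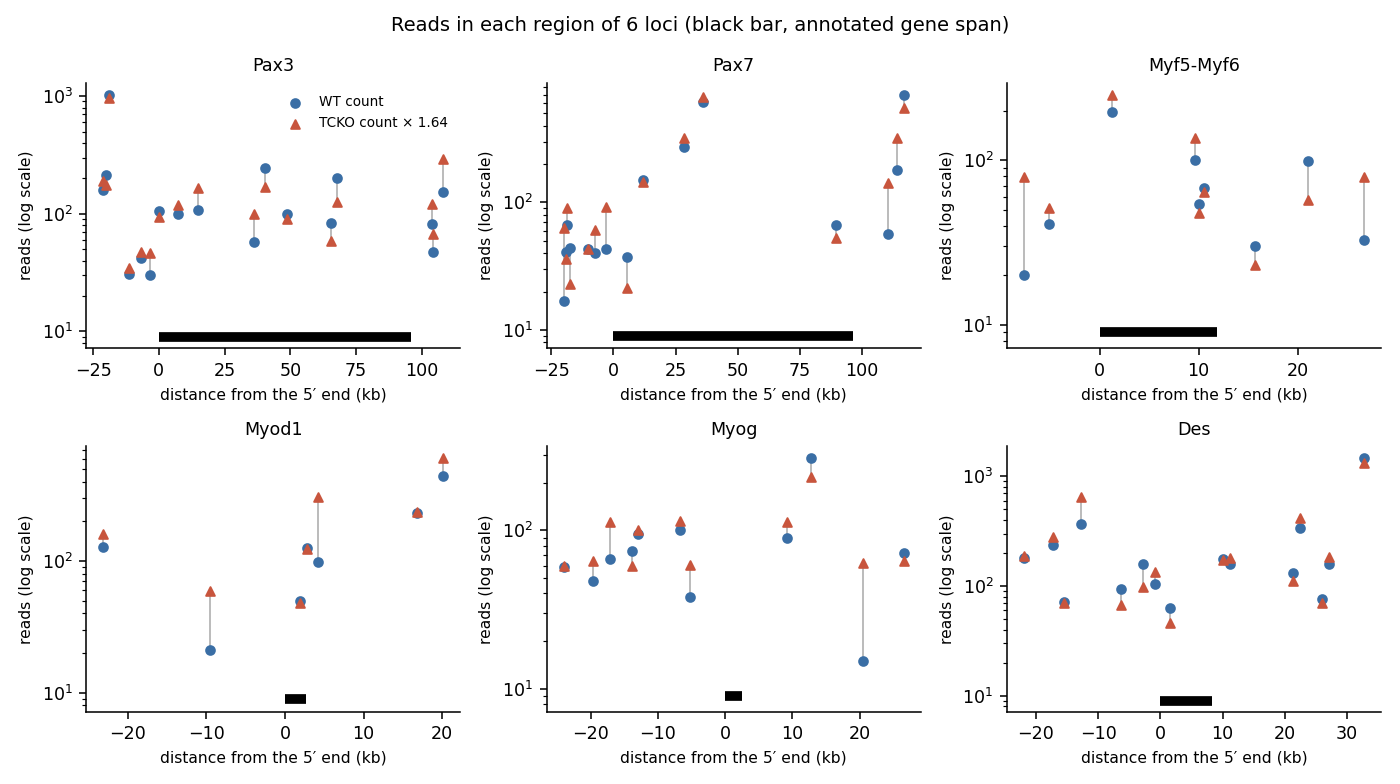
For 6 loci, each region is placed by its distance in kb from the annotated 5′ end (that of Myf6 for the Myf5-Myf6 locus), with its WT count (circle) and its scaled TCKO count (triangle) on a log scale, and the black bar spans the annotated genes. At Myod1 the widest gap above WT among regions with over 50 reads is the region 4.17 kb past the start. At Pax3 and at Des the pair lies close together at the region with most reads, and at Pax7 that region is lower in TCKO (log2 ratio −0.34).

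Myog, the differentiation factor, had no region within its gene body or within 1 kb of its start (chr1:134289989-134292548, plus strand). The 11 regions of its flanks held 942 reads in WT and 627 in TCKO (log2 ratio 0.13, interval −0.016 to 0.28). The one with most reads, chr1:134302502-134303153, lay 12.8 kb past the start, in an intron of Ppfia4, and had 285 reads in WT and 133 in TCKO (log2 ratio −0.38, interval −0.68 to −0.086). Without it the locus stood at 0.31 (0.14 to 0.47). The largest rise of all members was chr1:134310448-134310558, in an intron of the same gene, where 15 reads in WT stood against 38 in TCKO (log2 ratio 1.99, interval 1.21 to 2.91). The other Myog regions lay between −0.32 and 0.77.

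Of the 8 member regions at least 2-fold higher in TCKO, 5 held a peak summit in that genotype only. A region entered the table when it was called in either genotype, and these 5, which entered through their reads in TCKO, had between 15 and 33 reads in WT. The 6 members with a summit in TCKO only were 5.41% of the group, against 10.2% of all regions. Summits in WT only were found at 40 members (36.0%), against 33.0% of all regions, and in both genotypes at 65 (58.6%), against 56.8%. These shares are given without a test.

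Mef2c, the partner factor, was lower in TCKO along nearly the whole gene. Its 29 regions (chr13:83504034-83667080, plus strand) held 6231 reads in WT and 2994 in TCKO (log2 ratio −0.34, interval −0.40 to −0.28), or 1.27-fold lower, and 2.71% of all protein-coding loci had a lower value. Of the 29 regions, 23 (79.3%) had a ratio below 0, against 45.4% of all regions. An interval wholly below 0 was found at 16 and wholly above 0 at 4, where 18.9% and 29.5% of all regions had one. Leaving out any single region kept the locus between −0.37 and −0.33. The sum thus rested on many regions, with no other protein-coding gene in the window.

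The 10 Mef2c regions with over 200 reads in WT had log2 ratios between −0.54 and −0.14. The most accessible, chr13:83524199-83524956, over one of the annotated transcript starts, had 880 reads in WT and 409 in TCKO (log2 ratio −0.39, interval −0.56 to −0.22). An intronic region at chr13:83603417-83604243 had 777 and 349 reads, a log2 ratio of −0.44, and another at chr13:83517990-83518714 had 660 and 306, a log2 ratio of −0.39. The highest summit enrichment of all members was at chr13:83532021-83532430, at 16.2-fold over background in WT and 11.3-fold in TCKO, with 394 and 176 reads. The region with the MEF2 element printed above had 266 reads in WT and 119 in TCKO (log2 ratio −0.44). The smallest difference among the 10 was at chr13:83523623-83524014, with 335 and 185 reads (log2 ratio −0.14).

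The largest relative losses at Mef2c were in weaker regions. At chr13:83544875-83545024 the 50 reads of WT stood against 6 in TCKO (log2 ratio −2.23, interval −3.53 to −1.15). At chr13:83585404-83585722, 137 reads stood against 39, a log2 ratio of −1.08 (−1.61 to −0.58), and at chr13:83537212-83537357, 37 stood against 10, a log2 ratio of −1.12. All 3 were intronic and had a summit in WT only, so they entered the table through their reads in WT. The 10 regions with over 200 reads were called in both genotypes. Against the trend, chr13:83572060-83572661 at another transcript start had 186 reads in WT and 141 in TCKO (log2 ratio 0.32), and chr13:83662063-83662269 near the 3′ end had 77 and 81, a log2 ratio of 0.78. The largest rise of the locus was the weak region chr13:83567225-83567326, with 34 and 39 reads (log2 ratio 0.90) and a summit in TCKO only. At chr13:83588191-83588521, 118 reads stood against 97 (log2 ratio 0.43).

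**Figure D3:**
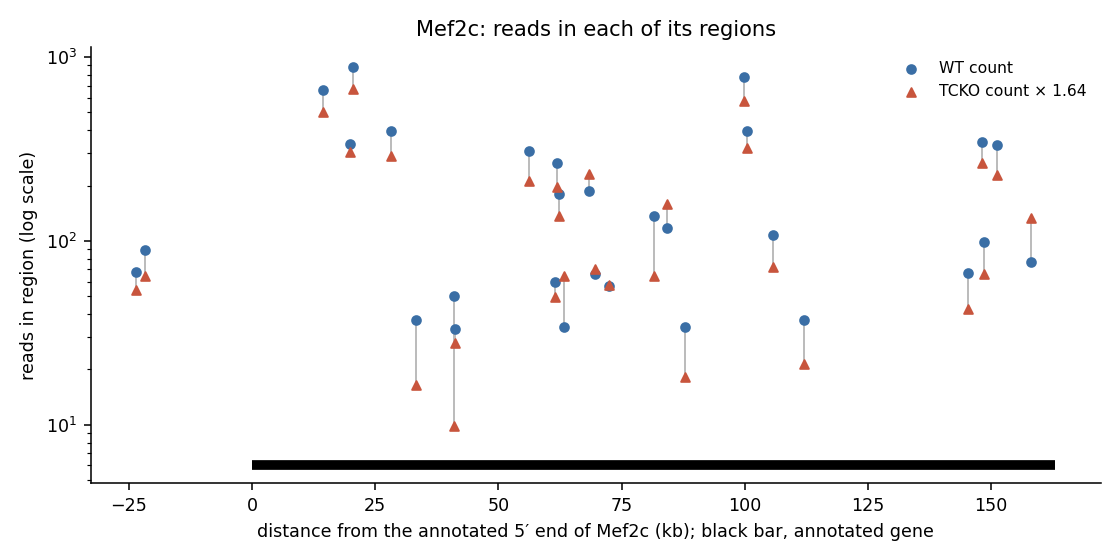
Each of the 29 Mef2c regions is placed by its distance in kb from the annotated 5′ end of the gene, with its WT count (circle) and its TCKO count multiplied by 1.64 (triangle) on a log scale, and the black bar is the annotated gene. The triangle lies below the circle at 23 of 29 regions, among them all regions with over 200 reads in WT.

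Des and Ckm showed small differences when scaled by total count, and many of their regions lay nearest to the starts of neighbours. The Des locus (chr1:75360329-75368579, plus strand) had 3758 reads in WT and 2428 in TCKO over 15 regions, a log2 ratio of 0.087 (0.013 to 0.16). Leaving out 1 region moved this value between −0.022, without chr1:75347228-75347800, and 0.21. Only 7 of the 15 were nearest to Des, and the region with most reads of all members, chr1:75392260-75393918 with 1450 in WT and 805 in TCKO, lay in an intron of Speg, a kinase gene of striated muscle, with a log2 ratio of −0.13. The regions nearest to Des had a log2 ratio of 0.30. Upstream of Des, chr1:75347228-75347800, which holds the other MEF2 element printed above, had 366 reads in WT and 396 in TCKO (log2 ratio 0.83). Nearer to the start, chr1:75357333-75357647 had 159 and 59 reads, a log2 ratio of −0.71 (−1.14 to −0.28), and the region just before the start had 105 and 81, a log2 ratio of 0.34 (−0.074 to 0.76). The 2 members with an A- and T-only MEF2 element in their central 200 bases differed in direction by total count, the one at Mef2c lower and the one at Des higher in TCKO. The Mef2c region chr13:83603417-83604243, also holds this element, outside its centre.

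Ckm lies among other genes, and 3 of the 8 regions of its window (chr7:19404776-19422841, plus strand) were nearest to it. The window held 2144 reads in WT and 1375 in TCKO (log2 ratio 0.076, interval −0.021 to 0.17), and leaving out 1 region moved it between −0.0057 and 0.17. Its region with most reads, chr7:19381648-19382578, covered the start of the DNA repair gene Ercc2, with 704 reads in WT and 392 in TCKO (log2 ratio −0.13). In the same gene, the intronic region chr7:19388835-19389547 had 206 and 74 reads, a log2 ratio of −0.75 (−1.14 to −0.38). The strongest region nearest to Ckm was exonic, chr7:19421078-19421734, with 474 reads in WT and 318 in TCKO (log2 ratio 0.14). No region lay within 1 kb of a protein-coding transcript start of Ckm.

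At their starts 4 of the muscle genes had no region, and the other 5 lay below the median of genes with one. A region within 1 kb of a protein-coding transcript start was present for 5 of the 9 genes, against 15913 of 21853 protein-coding genes (72.8%). The 4 without one were Myod1, Myog, Pax7 and Ckm. Per length, the WT level of the starts that had one was 4.52 reads per kb and per 1000000 counts at Myf5, 4.80 at Myf6, 5.06 at Pax3, 7.04 at Des and 12.4 at Mef2c. The median of all genes with such a region was 16.4. The first 4 genes lay near one another in this order, and of the genes with such a region 6.52% had a lower level than Pax3 and 34.8% a lower level than Mef2c. In TCKO the same starts stood at 6.10 at Myf5, 6.09 at Myf6, 4.48 at Pax3, 8.93 at Des and 10.5 at Mef2c. The summed Mef2c starts, 7 regions with 1967 reads in WT and 1014 in TCKO, had a log2 ratio of −0.24 (−0.35 to −0.13).

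The labelled cell type was checked against markers on the same scale. All 8 osteoblast markers (Runx2, Sp7, Alpl, Col1a1, Col1a2, Bglap, Ibsp and Dmp1) had a region at a start, with a median WT level of 10.7, the lowest at Ibsp, 4.30, and Bglap, 4.91, and the highest at Col1a1, 30.8. The starts of Myf5, Myf6, Pax3, Des and Mef2c thus lay within the range of the osteoblast markers. Of 9 markers of differentiated skeletal muscle, 3 had one, and Acta1, Myh2, Myh3, Myh4, Myh8 and Ckm had none. Of these 3, Mylpf stood at 62.9, above every osteoblast marker, in a region that also covers the start of its neighbour Tbc1d10b. Endothelial markers had one at 5 of 6 genes, with a median WT level of 6.34. Macrophage markers had one at 4 of 6, with a median of 11.5, above that of the osteoblast markers. In TCKO the medians were 9.18 for osteoblast, 12.2 for endothelial and 12.8 for macrophage markers. The levels at starts thus did not set the osteoblast markers apart from those of other cell types. Over whole loci, scaled by total count, the endothelial markers were higher in TCKO, with a median log2 ratio of 0.32, between 0.044 and 0.62, and intervals wholly above 0 at 5 of 6. Of the osteoblast loci 4 of 8 had intervals wholly below 0 and 1 above, and of the macrophage loci 3 of 6 below and 2 above, on few genes and beside the 35.7% and 28.0% of all protein-coding loci. The part of these other cells in the ratios of Myod1 and Mef2c was not tested, and in bulk chromatin a changed number of cells of a type and a changed accessibility in each cell cannot be told apart.

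The wider muscle program was spread around 0. Of 62 further loci, grouped by role, 23 (37.1%) had an interval wholly below 0, 16 (25.8%) wholly above 0 and 23 spanned 0. Windows that overlap were not merged in this list, so a region can count in more than 1 locus, as it can among all protein-coding loci. The shares below and above 0 are near the 35.7% and 28.0% of all protein-coding loci, and so give nothing particular to the list. The median of the 62 loci was −0.016, against −0.020 for all protein-coding loci. None reached 2-fold. Upstream regulators had 3 of 10 below and 5 of 10 above, with a median of 0.067. The partners and inhibitors of the bHLH factors had 6 of 8 below and 0 above, with a median of −0.092. The MEF2 family and its repressors had 3 of 6 below and 2 above, fusion and adhesion genes 1 of 4 each way, the sarcomere 8 of 22 below and 6 above, and excitation and metabolism 2 of 12 each way. Of the other MEF2 genes, Mef2a stood at −0.21 (−0.27 to −0.15) and Mef2b at −0.11 (−0.17 to −0.046), both wholly below 0 as at Mef2c. Mef2d stood at −0.017 (−0.066 to 0.031). Each interval lay above that of Mef2c, but intervals of counting error only cannot show that loci differ.

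The lowest of these loci were Myl1, a myosin light chain, with 527 reads in WT and 233 in TCKO and a log2 ratio of −0.46 (−0.68 to −0.24), Id1, which blocks E proteins and so the bHLH factors, at −0.38 (−0.44 to −0.33), and Tnni1, the slow troponin I, at −0.32 (−0.38 to −0.26). The highest with at least 200 reads in WT were Tcf21, a bHLH factor of head muscle progenitors, with 328 reads in WT and 276 in TCKO and a log2 ratio of 0.47 (0.24 to 0.70), Acta1, the skeletal actin, at 0.42 (0.34 to 0.51), and Cdh15, the M-cadherin of muscle cells, at 0.29 (0.22 to 0.35). Sarcomere genes stood at both ends of this order. For 2 other fates of mesenchymal cells, 8 chondrocyte loci had a median of 0.041, between −0.17 and 0.18, and 8 adipocyte loci a median of −0.059, between −0.35 and 0.25. Myod1 lay above all 16 of these loci, and Mef2c was close to the lowest of them, the adipocyte factor Cebpa at −0.35 (−0.42 to −0.27).

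**Figure D4:**
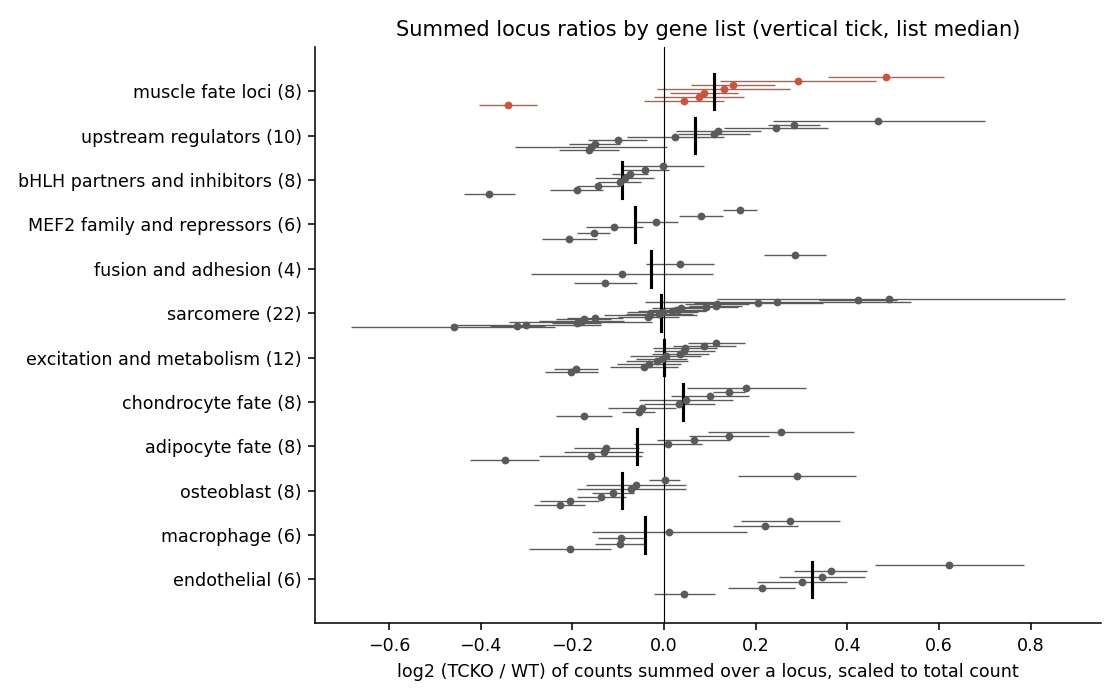
Each point is 1 locus, placed by the log2 ratio of its summed counts with the 95% counting interval, in rows by gene list, with the number of loci in brackets and the list median as a vertical tick. The muscle fate loci (top row) span −0.34 to 0.48, and the endothelial markers (bottom row) are all above 0 on this total-count scale.

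In sequence the members resembled the table in motifs and differed from it in base composition. The window of 200 bases reaches past the ends of the 40 members that are shorter, so a match counted there can lie outside the region. An E-box lay in the central 200 bases of 64.9% of members and 69.1% of all regions, and CAGCTG in 16.2% and 15.6%. The Runt motif was found in 18.9% and 22.2%, AP-1 in 18.9% and 23.6%, and the paired homeobox motif (TAAT and ATTA with 3 bases between them) in 0 of 111 members, which by the rule of 3 counts (3 of 111) allows a share of up to 2.70%, and in 0.187% of all regions. The MEF2 element was in 3 members (2.70%) and 3.30% of all regions, and with only A or T in its middle in 2 members (1.80%) and 0.610%. Median GC content was 52% in members and 48% in all regions, and at least 4 CpG stood in the central 200 bases of 45.9% of members against 28.5% of all regions. The loci differed in this, with a median GC content of 45% at Mef2c and 46.5% at Myf5-Myf6, both below the table, and 58% at Myod1 and 59% at Ckm. At Mef2c 20.7% of the regions had 4 CpG or more. The intronic members, 44 in number, had a median log2 ratio of −0.33, and the 46 intergenic ones 0.19. Of the intronic ones 20 were at Mef2c, with a median of −0.44, and the 24 at the other loci had a median of −0.096.

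The direction of the 7 loci other than Mef2c depended on how the genotypes were scaled. The factor that brought TCKO to WT was 1.64 by total count, 1.56 by TMM and 1.57 by DESeq2 size factors, but 1.08 by the background that the peak caller had used in each library and 1 with no scaling. Under the last 2 the median of all regions moved to −0.54 and −0.64, and all 8 loci lay below 0, Pax7, Myf5-Myf6, Myod1 and Des among them. Myod1 then stood at −0.13 and −0.23, and Mef2c at −0.95 and −1.06. Each scaling is 1 factor on all TCKO counts, and that by total count is the largest, so the order of the loci and the negative sign of Mef2c could not change among them.

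**Figure D5:**
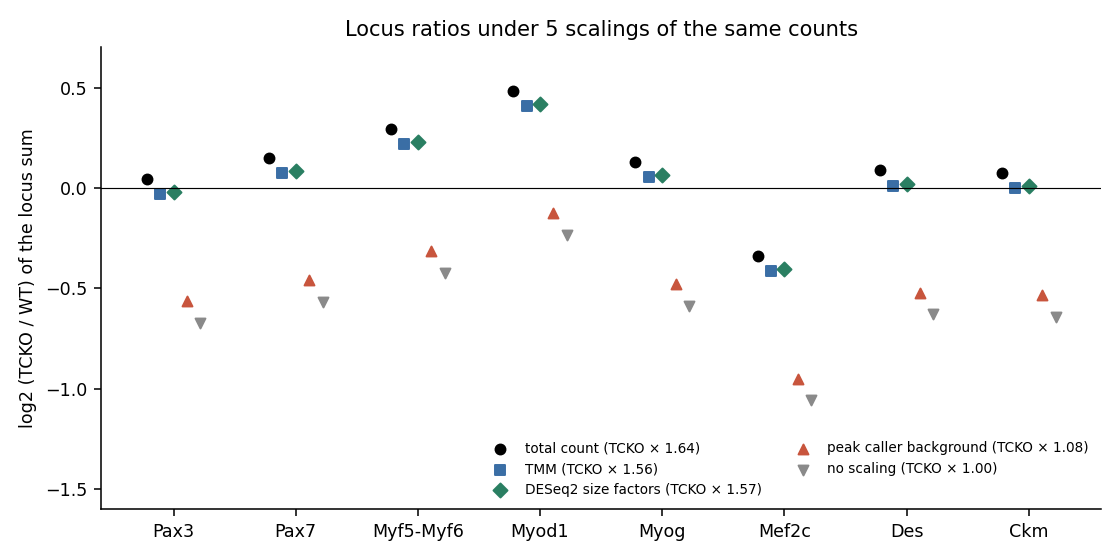
The log2 ratio of each locus sum is drawn under 5 scalings of the same counts, named in the key with the factor by which TCKO counts were multiplied. Mef2c lies below 0 under all 5, from −0.34 to −1.06, and Myod1 changes from 0.48 to −0.23. A factor shifts all loci alike, so their order is the same by construction.

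The edge of the 25 kb window passed between weak and moderate regions. The regions just inside it were chr1:134265874-134266047 at Myog, with 59 reads in WT and 36 in TCKO and a log2 ratio of 0.0045, and chr1:134316442-134316686 at Myog, with 72 and 39 and a log2 ratio of −0.16. Just outside lay chr4:139858574-139858939 at Pax7, with 279 and 223 reads and a log2 ratio of 0.39, and chr10:107456773-107457373 at Myf5, with 276 and 129 and a log2 ratio of −0.38.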

How the data were processed

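Chromatin accessibility had been measured in 4 samples of primary osteoblasts, 2 WT and 2 TCKO per the labels. According to its methods, the study aligned reads end to end with STAR (version 2.7.0e) to GRCm38, kept reads that mapped uniquely, and called peaks and their summits with MACS2. Removal of duplicate or mitochondrial reads and a transposase shift are not given in the sources used here.

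The authors deposited raw read counts per region with 1 merged column per genotype, and without replicate columns no edgeR test was possible. The deposited peak lists give a fold enrichment over local background, which is a ratio, and the −log10 of a p-value and a q-value for each summit. They were used for peak status, for enrichment at summits and, by solving the caller's fold and Poisson p-value for the background, for 1 alternative scaling. The solved backgrounds were 1.98 reads in WT and 1.91 in TCKO. Each was divided by the shortest called interval, 98 bases in WT and 102 in TCKO, before the factor was taken. Total counts of 56898657 (WT) and 34608167 (TCKO) set the precision.

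Ratios used 1 added count and the total-count factor, and the cutoff was a fold of 2. Regions were joined to GENCODE M21 genes with Python 3.11.15 and pandas 2.3.3. Sequences were read from the RefSeq copy of GRCm38 with pysam 0.24.0, after all 21 chromosomes in the files were checked to fit its lengths. Alternative factors came from edgeR 4.0.16 (TMM) and DESeq2 1.42.0 in R 4.3.3, and a loess fit had a span of 0.3. The scripts were tested on simulated data. The member genes, gene lists and marker lists were chosen with earlier results of these data known.

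The text names, for each locus, the region with most counts and those within 1 kb of a start, then the 5 largest falls and 5 largest rises among members that reached 50 counts in the genotype where they were higher after scaling, and the 3 lowest and 3 highest loci of the wider list with at least 200 WT counts. Other regions were named after their values were seen. No column of single samples was in the files used.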

Additional observations from a re-analysis of the deposited data

How the results depend on the processing

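No paired analysis was possible because each genotype has a single merged column, and no replicate was left out for the same reason. Members at least 2-fold lower, 3 by total count, are given with the share of all regions in brackets. They numbered 37 with no scaling (25.6%), 24 with the peak caller's background (19.9%), 1 with 10 counts added (2.82%), 0 without the Mef2c locus (4.51%), 12 at a fold of 1.5 (13.2%) and 1 with the interval wholly past 2 (0.654%). Members at least 2-fold higher, 8 by total count, numbered 3 with no scaling (3.17%), 4 with the peak caller's background (3.91%), 0 of 48 in gene bodies only, 16 of 177 with 50 kb on either side and 5 without the Pax7 locus (each 12.3%), 21 at a fold of 1.5 (23.3%) and 4 with the interval wholly past 2 (3.82%). The median of the members, −0.0083, became −0.71 with no scaling, −0.60 with the peak caller's background, −0.15 after the loess fit and −0.30 in gene bodies only. The first 2 of these lower every region alike, because the factor is smaller, and gene bodies only kept mostly Mef2c regions. The other causes were not tested.

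Of 68 locus values under alternatives, 36 stayed within the counting interval, 21 left it and 11 changed the sign of a locus whose interval excluded 0. Unscaled and with the peak caller's background respectively, Pax7 stood at −0.57 and −0.46, Myf5-Myf6 at −0.42 and −0.32, Myod1 at −0.23 and −0.13, and Des at −0.63 and −0.52. Myod1 was at −0.067 in the gene body and within 2 kb of its start (1 region of 50 WT reads), and Des at −0.44 in the gene body (1 region of 63 WT reads). Mef2c lay between −1.06 and −0.27 under the alternatives tried, of which the scalings by 1 factor could only lower it. Leaving out the region that moved a locus most was added after seeing the data, as was the stricter MEF2 motif. Depth limits single regions most: at the median member, 100 WT and 68 TCKO reads.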
